A study of Mus musculus with 8 samples.

Results

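In all, 6 genes were described over 4 groups of mouse regulatory T cell libraries: Ccn4, Crtam, Jaml, Pdzk1ip1, Slamf7 and Samd4. They were picked from these same data because their RNA was lower with a guide RNA against Foxp3 than with a control guide at rest (0 h) and higher with the Foxp3 guide 3 h after T cell receptor (TCR) stimulation. The 6 were matched by symbol among 55665 genes in the deposited tables, and all 6 were among the 16642 genes with enough counts to be tested. Since the guide contrasts at both times chose them, the values of the 6 genes are given as a description, without a test.

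RNA was sequenced with a stranded protocol from cultured natural Treg cells, sorted as CD4+GFP+ cells from spleen and lymph nodes. All 4 groups came from RosaCas9/+ Foxp3gfp mice, so the controls too carried Cas9 and the Foxp3 reporter. The groups were the control guide (sgNC) or the Foxp3 guide (sgFoxp3), each taken after mock treatment in DPBS, here called 0 h, or after 3 h of restimulation with antibodies to CD3 and CD28, with 2 libraries each. The labels do not say whether the libraries of a group were separate cultures or animals, so every SE and p-value describes the spread among libraries alone, and that spread may be technical.

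Foxp3 itself, the target of the guide, stood at 764 and 776 CPM (counts scaled to the library size) in the control guide libraries at 0 h and at 87.6 and 88.5 in the Foxp3 guide libraries. At 3 h it stood at 679 and 673 CPM with the control guide and at 76.1 and 71.8 with the Foxp3 guide. The Foxp3 guide libraries thus lay below the control libraries at both times, by 8.75-fold and 9.15-fold, and kept a measurable Foxp3 transcript. RNA level does not show how many cells were edited. Library totals ran from 38729009 to 94807362 expected counts. The 6 T cell markers summed to between 1733 and 2136 CPM over the 8 libraries, a sum that hides opposite changes. Under both guides Cd3d, Cd3e, Cd3g and Cd4 were lower at 3 h than at 0 h, and Trac and Cd5 were higher. With the control guide Cd4 went from 378 and 397 to 143 and 139 CPM, and Trac from 218 and 221 to 529 and 549 CPM.

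Slamf7, Crtam and Jaml encode surface receptors of the immunoglobulin superfamily, which lymphocytes use to bind each other or other cells. SLAMF7 binds itself on a neighbouring cell, CRTAM binds the nectin-like molecule CADM1 and marks activated T cells with a cytotoxic programme, and JAML binds the epithelial receptor CXADR and can costimulate T cells. Ccn4, also called Wisp1, encodes a secreted matricellular protein first known as a product of Wnt signalling; Pdzk1ip1 (MAP17) encodes a small membrane protein that binds the scaffold PDZK1; and Samd4 encodes Smaug, an RNA-binding protein that represses translation and recruits the deadenylation machinery. TCR signalling through calcium, MAP kinase and NF-kappaB activates NFAT, AP-1 and Rel factors, and Foxp3 can act together with several of these factors on their targets.

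On the GRCm38 assembly with the GENCODE M21 annotation, all 6 were protein-coding genes on 5 chromosomes, and their identifiers matched to the version. Slamf7 (ENSMUSG00000038179.13) lay at chr1:171632403-171653035 on the minus strand, in the cluster that holds its relatives Cd48 and Cd244a. Crtam (ENSMUSG00000032021.14, chr9:40969691-41004628, minus strand) and Jaml (ENSMUSG00000048534.7, chr9:45079183-45108534, plus strand) shared a chromosome. Ccn4 (ENSMUSG00000005124.10) lay at chr15:66891320-66923201, Pdzk1ip1 (ENSMUSG00000028716.15) at chr4:115088708-115093899 and Samd4 (ENSMUSG00000021838.17) at chr14:46882854-47105815, all on the plus strand. The spans ran from 5192 bp for Pdzk1ip1 to 222962 bp for Samd4.

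The sequences upstream of 3 of the genes are shown because they hold short motifs of factors that act after TCR or cytokine signalling. RefSeq (GRCm38.p6) gave a start for 4 of the 6 genes, with 2 starts for Samd4, and the 250 bases before each start were searched on both strands for 11 motifs. Each is printed 5′ to 3′ in the direction of the gene, and capitals mark the matches. The windows are chr1:171649000-171649249 (minus strand) for Slamf7, which lies inside the GENCODE span of the gene, chr4:115088458-115088707 (plus strand) for Pdzk1ip1 and chr9:45078933-45079182 (plus strand) for Jaml.
Slamf7: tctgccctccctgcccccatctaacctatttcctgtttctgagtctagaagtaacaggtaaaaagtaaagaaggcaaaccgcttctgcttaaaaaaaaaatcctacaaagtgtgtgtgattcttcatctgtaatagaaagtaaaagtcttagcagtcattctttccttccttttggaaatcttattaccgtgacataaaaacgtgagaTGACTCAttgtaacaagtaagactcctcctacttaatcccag
Pdzk1ip1: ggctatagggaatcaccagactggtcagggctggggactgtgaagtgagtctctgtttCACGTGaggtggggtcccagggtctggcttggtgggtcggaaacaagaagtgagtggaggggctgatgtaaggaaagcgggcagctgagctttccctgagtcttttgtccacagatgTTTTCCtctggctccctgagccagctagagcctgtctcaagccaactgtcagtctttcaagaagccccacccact
Jaml: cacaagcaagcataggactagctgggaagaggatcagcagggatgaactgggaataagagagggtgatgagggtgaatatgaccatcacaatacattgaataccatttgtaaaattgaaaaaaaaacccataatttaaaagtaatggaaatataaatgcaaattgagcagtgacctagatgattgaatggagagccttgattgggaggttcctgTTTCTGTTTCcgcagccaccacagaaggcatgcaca
The Slamf7 window held the AP-1 motif TGANTCA, as TGACTCA, 42 bases before the start. AP-1 is the Fos and Jun dimer, and 6.75% of 32851 promoters of the same length held this motif. The Pdzk1ip1 window held an E-box, CACGTG, 192 bases before the start (6.02% of all promoters) and the NFAT core GGAAAA on the reverse strand, read as TTTTCC, 75 bases before it (20.4%). The Jaml window held the interferon response motif (GAAA repeated after any 2 bases) on the reverse strand, read as TTTCTGTTTC, 36 bases before the start (2.98%). Neither Samd4 window held any of the 11, and no match overlapped another. The other motifs searched were CRE TGACGTCA, NF-kappaB (GGG and TTTCC around any 2 bases), forkhead TGTTTAC, EGR GCGTGGGCG, RUNX TGTGGTT, ETS CCGGAAG and T-box TCACACC, each held by 0.536% to 6.91% of all promoters. These matches are descriptions of letters and not of bound sites.

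Among the receptors, Slamf7 stood at 1.03 and 1.35 CPM with the control guide at 0 h and at 0.0980 and 0.233 CPM with the Foxp3 guide. At 3 h it stood at 138 and 131 CPM with the control guide and at 167 and 169 CPM with the Foxp3 guide. The order of the guides was thus reversed between the times, which is what the gene was picked for. That the groups did not overlap at either time follows from the same choice, and nothing is read from it. The 0 h values rest on 112 counts in the control libraries and 23 in the Foxp3 guide libraries. The guide effect was -2.85 ± 0.27 (log2 change ± SE) at 0 h and 0.32 ± 0.045 at 3 h, the smallest excess at 3 h of the 6. Leaving out a Foxp3 guide library moved the 0 h value to -2.35 (without replicate 1) or -3.58 (without replicate 2), so its deficit was the largest of the 6 on the count scale with all libraries, but not without replicate 1, where Samd4 was at -2.46, nor on log2(TPM + 1). On log2(TPM + 1), where TPM is the length-scaled transcript level, the 3 h value was 0.10 ± 0.11, less than its SE.

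Crtam stood at 0.201 and 0.265 CPM with the control guide at 0 h and at 0.0840 and 0.0727 CPM with the Foxp3 guide, a few counts per library. At 3 h the control guide libraries held 10.5 and 10.9 CPM and the Foxp3 guide libraries 42.4 and 43.6 CPM. The difference at 3 h was therefore broad, while that at 0 h rested on 22 counts against 11. The ratio of the Foxp3 guide to the control at 0 h was 0.335, with an exact 95% counting interval of 0.147 to 0.720, which covers counting error only. Crtam was picked for a deficit at 0 h, which the interval does not allow for, so it serves as no test. The guide effect was -1.55 ± 0.42 at 0 h and 2.01 ± 0.062 at 3 h, a 4.02-fold excess.

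Jaml was the only gene of the 6 that was well counted at 0 h, with 539 to 947 counts in each library. It stood at 18.5 and 19.3 CPM with the control guide and at 8.01 and 7.84 CPM with the Foxp3 guide at 0 h. After 3 h the control guide libraries held 53.9 and 53.5 CPM, and both Foxp3 guide libraries held 245 CPM. Its 0 h values therefore rest on more counts than those of the other genes, though its change of order between the guides is what it was picked for. The guide effect was -1.25 ± 0.056 at 0 h and 2.19 ± 0.039 at 3 h (4.57-fold), the largest excess of the 6. Its deficit at 0 h was the smallest of the 6 on the count scale but, at -1.48, the largest on log2(TPM + 1), where the sparse genes shrink.

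Ccn4, the secreted protein, stood at 1.07 and 0.734 CPM with the control guide at 0 h and at 0.182 and 0.175 CPM with the Foxp3 guide. At 3 h it stood at 19.3 and 19.1 CPM with the control guide and at 50.1 and 48.2 CPM with the Foxp3 guide. The groups did not overlap at either time, as the choice of the gene leads to, and nothing is read from it. Its guide effects were -2.31 ± 0.27 (84 counts against 25) and 1.36 ± 0.057, and their difference, 3.67 ± 0.27 on the log2 scale, was close to those of Crtam (3.56 ± 0.44), Jaml (3.45 ± 0.068) and Pdzk1ip1 (3.33 ± 0.52). Without control 0 h replicate 1 it was 3.38, below Crtam at 3.74.

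Pdzk1ip1 was the sparsest of the 6 with the Foxp3 guide at 0 h: its 2 libraries held 2 and 5 counts, or 0.0280 and 0.0727 CPM, against 0.268 and 0.224 CPM with the control guide. At 3 h the values were 10.8 and 12.8 CPM with the control guide and 24.8 and 25.2 CPM with the Foxp3 guide. The guide effect at 0 h was -2.25 ± 0.52, and the ratio of 0.204 had an exact 95% counting interval of 0.0738 to 0.490. That interval covers counting error only and does not allow for the choice of the gene, so it too serves as no test. Without Foxp3 guide replicate 1 the guide effect at 0 h was -1.72 and without replicate 2 it was -3.03, so its size is loosely fixed. The guide effect at 3 h was 1.09 ± 0.077.

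Samd4, the translational repressor, stood at 0.849 and 0.775 CPM with the control guide at 0 h and at 0.126 and 0.145 CPM with the Foxp3 guide. At 3 h it stood at 81.1 and 78.2 CPM with the control guide and at 106 and 102.4 CPM with the Foxp3 guide. As with Slamf7, the deficit at 0 h was deep and the excess at 3 h small, at -2.56 ± 0.27 and 0.38 ± 0.043. The 3 h value was 0.23 on log2(TPM + 1).

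**Figure D1:**
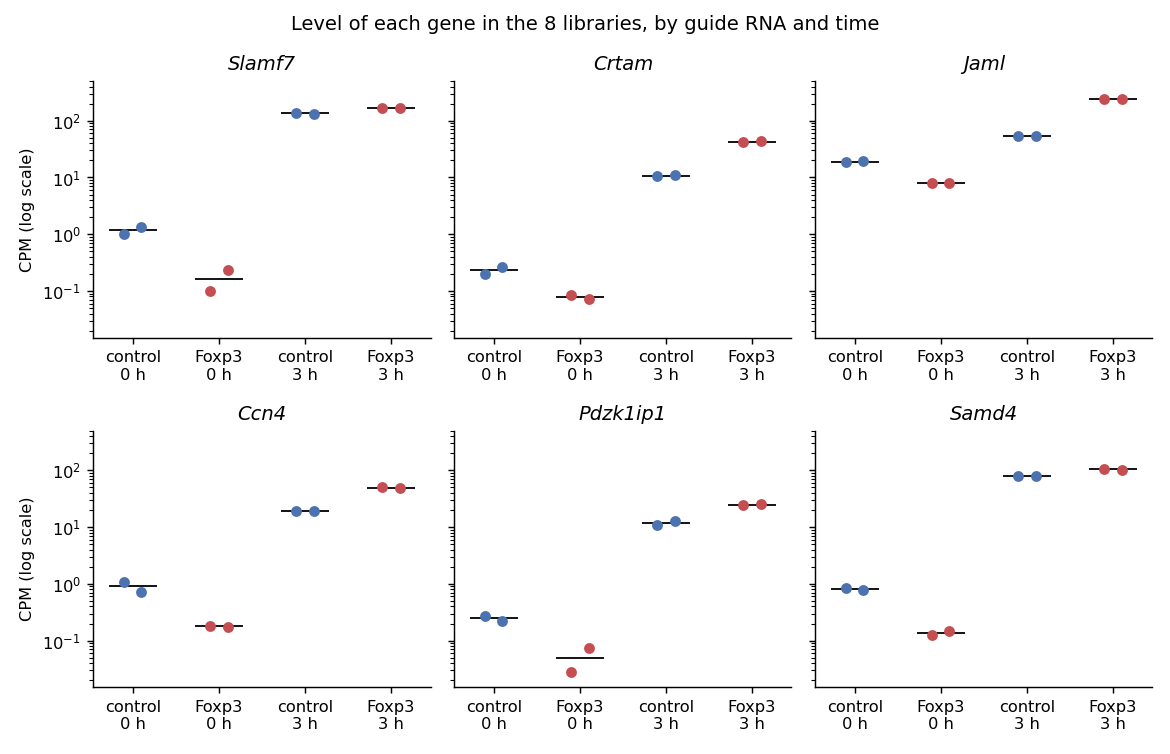
CPM of each of the 6 genes in each of the 8 libraries, on a log axis, by guide and time. In every panel the Foxp3 guide libraries lie below the control libraries at 0 h and above them at 3 h, and the distance at 3 h is smallest for Slamf7 and Samd4.

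In all 6 genes the libraries of the 2 guides did not overlap at 0 h or at 3 h, as the choice of the genes leads to. The share of all tested genes without such overlap was not counted, so nothing is read from it. Among all tested genes, edgeR (quasi-likelihood test, Benjamini-Hochberg adjusted p below 0.05) called 29.1% lower and 34.2% higher with the Foxp3 guide at 0 h, and 30.8% lower and 30.7% higher at 3 h. At 0 h 63.3% were called in either direction and at 3 h 61.5%. Calls that were lower at 0 h and also higher at 3 h made up 632 genes, or 3.8% of the tested genes, and the opposite pattern made up 712, or 4.28%. The same direction at both times was more frequent, with 17.9% lower and 19.5% higher at both times. The share of calls that were higher with the Foxp3 guide depended on scaling: at 0 h it was 54.0%, 47.4% with median-ratio size factors and 27.9% on log2(TPM + 1), and at 3 h 49.9% and, on log2(TPM + 1), 27.4%. The median of all genes was 0.02 at 0 h and -0.01 at 3 h, and on log2(TPM + 1) it moved to -0.15 and -0.12, against which the TPM values of the 6 genes are to be read.

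The rule that chose the genes states no threshold. Among the 632 genes of this pattern, ordered by the difference between the guide effects, Ccn4 stood in place 13, Crtam 15, Jaml 17, Pdzk1ip1 19, Slamf7 22 and Samd4 28. The median gene of the pattern had a guide effect of -0.33 at 0 h and 0.26 at 3 h. The 6 genes had medians of -2.28 and 1.22, and 25 of the 632 genes had both effects of at least 2-fold.

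**Figure D2:**
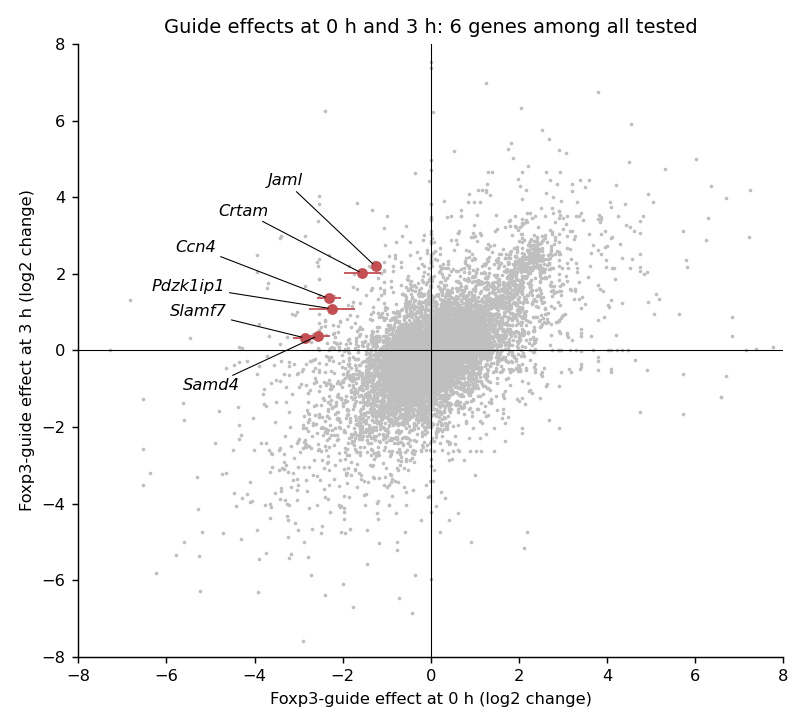
Guide effect at 0 h (horizontal axis) against that at 3 h (vertical axis), as log2 change, for all tested genes in grey and the 6 genes in red with their SE. The 6 lie in the upper left part, from Jaml at -1.25 and 2.19 to Slamf7 at -2.85 and 0.32, and 9 genes fall outside the axis limit of 8.

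Seen along time, each of the 6 genes was higher at 3 h than at 0 h under both guides. The TCR effect with the control guide was smallest for Jaml, 1.51 ± 0.047, and largest for Slamf7, 6.81 ± 0.084; without control 0 h replicate 1 Samd4 (6.68) passed Slamf7 (6.64). With the Foxp3 guide it ran from 4.95 ± 0.047 for Jaml to 9.98 ± 0.10 for Slamf7, which went from 0.0980 and 0.233 CPM to 167 and 169. Leaving out Foxp3 guide 0 h replicate 1 or 2 moved the latter to 9.48 or 10.71 for Slamf7 and from 8.91 to 8.38 or 9.69 for Pdzk1ip1, beyond the SE printed. On log2(TPM + 1) the effects with the Foxp3 guide were smaller, from 3.71 for Ccn4 to 6.25 for Slamf7 with Jaml at 4.49, and the difference between the guides was 0.55 for Samd4, 0.73 for Slamf7, 1.40 for Ccn4, 1.65 for Pdzk1ip1, 1.88 for Crtam and 3.42 for Jaml. The medians over the 6 on the count scale were 5.54 and 8.98, beside medians over all tested genes of -0.01 and -0.07. Crtam and Pdzk1ip1 lay close to each other, at 5.50 ± 0.15 and 5.57 ± 0.17 with the control guide and 9.06 ± 0.13 and 8.91 ± 0.17 with the Foxp3 guide. Samd4 stood next to Slamf7, at 6.62 ± 0.083 and 9.56 ± 0.096, and Ccn4 at 4.42 ± 0.11 and 8.09 ± 0.11. The comparisons share libraries with the guide effects, and the difference between the TCR effects is by construction the difference between the guide effects.

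**Figure D3:**
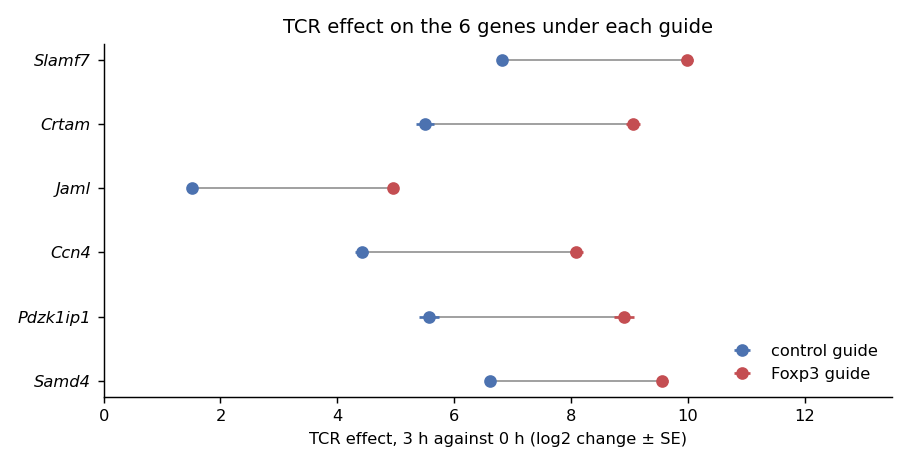
TCR effect (3 h against 0 h, log2 change ± SE) for each gene with the control guide in blue and the Foxp3 guide in red. All 12 values are above 0, and the gap between the guides is 2.94 for Samd4 and 3.67 for Ccn4 on this count scale, and 0.55 and 1.40 on log2(TPM + 1).

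On the length-scaled TPM values the genes can be compared with each other. At 0 h with the control guide Jaml was highest, at 17.5 and 18.9 TPM, and none of the other 5 passed 1.03 TPM. At 3 h with the control guide Slamf7 led at 82.5 and 81.4 TPM, above Jaml at 39.7 and 38.9. Pdzk1ip1 (21.8 and 27.96 TPM) and Samd4 (22.8 and 21.7 TPM) overlapped. Crtam (6.71 and 7.14 TPM) and Ccn4 (6.14 and 5.46 TPM) were close to each other without overlap. With the Foxp3 guide at 3 h Jaml was first instead, at 158 and 148.5 TPM, followed by Slamf7 at 89.9 and 86.4 and Pdzk1ip1 at 50.6 and 48.2. Samd4 (27.3 and 25.2 TPM) and Crtam (24.3 and 24.2 TPM) came next, and Ccn4 was last at 13.1 and 12.5 TPM. The profiles of the 6 over the 8 libraries were alike, with Pearson r from 0.915 (Jaml and Slamf7) to 0.998 (Slamf7 and Samd4). The 15 coefficients are a description of 8 libraries that share their groups, and the 0 h to 3 h step dominates them.

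In bulk RNA, fewer cells that express a gene and less RNA in each cell cannot be told apart, so the 0 h values do not say whether all cells or some held these transcripts. Markers of other cells were low, apart from the dendritic cell marker Zbtb46. CD8 markers summed to 6.23 to 8.71 CPM in all libraries and B and plasma cell markers to 3.12 to 7.44. The 8 myeloid markers summed to 1.04 to 1.13 CPM with the control guide at 3 h and to 4.29 to 4.41 with the Foxp3 guide at 3 h, mostly Itgam (0.688 and 0.803 against 3.47 and 3.67 CPM) and then Adgre1 (0.155 and 0.142 against 0.755 and 0.584 CPM), while Csf1r and Fcgr1 had 0 to 4 counts a group. At 0 h the myeloid sums were 1.94 to 2.20 CPM with the control guide and 2.20 to 2.31 with the Foxp3 guide, where Adgre1 had 8 and 79 counts. The 5 NK markers summed to 0.223 to 0.265 CPM with the control guide and 1.58 to 1.69 with the Foxp3 guide at 0 h, and to 0.0222 to 0.0708 and 0.367 to 0.377 CPM at 3 h. Of these, Klrb1c had 3 and 147 counts at 0 h and 1 and 4 at 3 h, Klrk1 12 and 72, then 1 and 40, and Ncr1, the defining receptor, had 1 count in all libraries together. Of the 4 gamma delta markers the tables held 2, at 1.61 to 2.49 CPM. The 6 dendritic cell markers summed at 0 h to 6.84 to 7.30 CPM with the control guide and 1.53 to 1.58 with the Foxp3 guide. At 3 h they summed to 53.7 to 59.0 and 14.8 to 16.0 CPM. These sums were mostly Zbtb46, with Siglech and Cd209a at 0 throughout. Itgax stood at 3 h at 0.333 and 0.236 CPM with the control guide and 3.43 and 2.69 CPM with the Foxp3 guide. The part of the NK markers, Itgam, Adgre1, Itgax and Zbtb46 in the result was not tested. The 4 Treg markers, of which Foxp3 is one, summed to 3327 to 3333 CPM with the control guide at 0 h and to 1148 to 1181 with the Foxp3 guide. At 3 h the sums were 7040 to 7243 and 3599 to 3618, mostly Il2ra (5099 and 4928 against 2732 and 2739 CPM). Ctla4 at 3 h stood at 1004 and 1015 against 323 and 330 CPM. Ikzf2 was lower with the Foxp3 guide at 0 h (669 and 676 against 394 and 400 CPM) but not at 3 h (462 and 423 against 467 and 478 CPM).

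The partners of the encoded proteins, and Samd4b, the paralogue of Samd4, were examined next. None of the 4 tested, Cadm1, Scrib, Cxadr and Samd4b, was called lower at 0 h and higher at 3 h. This pattern of the 6 genes was called in 3.8% of all tested genes. Nothing is read from so few genes. Cadm1, the ligand of CRTAM, was near the limit of detection, from 0.122 to 0.333 CPM, with guide effects of -0.26 ± 0.51 at 0 h (adjusted p = 0.69) and -1.01 ± 0.49 at 3 h (adjusted p = 0.078). Scrib, the polarity protein that the tail of CRTAM recruits, stood at 160 and 165.7 CPM with the control guide and 112 and 104.4 with the Foxp3 guide at 0 h. It was called lower with the Foxp3 guide at both times, by edgeR's test at -0.59 ± 0.041 (adjusted p = 6.22e-12) and -0.41 ± 0.042 (adjusted p = 8.37e-09). Cxadr, the ligand of JAML, stood at 4.83 and 5.26 against 2.58 and 2.68 CPM at 0 h and at 2.93 and 2.998 against 1.33 and 1.24 CPM at 3 h. It too was called lower at both times, at -0.94 ± 0.12 (adjusted p = 1.52e-07) and -1.21 ± 0.14 (adjusted p = 8.66e-08). While Jaml was higher with the Foxp3 guide at 3 h, its ligand was lower.

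Sh2d1b1, the adaptor on which SLAMF7 signals in NK cells, had 1, 1, 3 and 15 counts in the control guide 0 h, Foxp3 guide 0 h, control guide 3 h and Foxp3 guide 3 h groups, too few to be tested. Pdzk1, the scaffold that binds the product of Pdzk1ip1, had 2, 13, 12 and 19 counts in the same order and was not tested either. Samd4b, the paralogue of Samd4, stood between 43.6 and 49.2 CPM in all 8 libraries. Its guide effect was -0.09 ± 0.044 at 0 h (adjusted p = 0.082) and -0.17 ± 0.044 at 3 h (adjusted p = 0.0023), and the 3 h call was lost without either Foxp3 guide library at 3 h (-0.12 to -0.11, adjusted p = 0.089 to 0.11).

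Calls were then counted in 6 lists of genes around the 6, with 99 genes of which 81 were tested. At 0 h 36 were called higher and 29 lower with the Foxp3 guide, and at 3 h 35 higher and 25 lower, that is 80.2% and 74.1% called beside 63.3% and 61.5% of all tested genes. The guide effects of 26 were called more positive at 3 h than at 0 h and those of 19 more negative, 55.6% beside 44.8% of all tested genes. Of all tested genes 17.8% were called more positive and 27.0% more negative. At 0 h 34.2% of all tested genes were called higher and 29.1% lower, and at 3 h 30.7% higher and 30.8% lower. The counts of each list below are to be read beside these shares. The list medians were 0.05, 0.06 and 0.08 beside 0.02, -0.01 and -0.09 over all genes. The pattern of the 6 genes, lower then higher, was found in 4 of the 81 (4.94%, beside 3.8%), and the opposite in 5 (6.17%, beside 4.28%). For these lists and the neighbours, rose and fell mean higher and lower with the Foxp3 guide than the control guide at the same time.

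The SLAM family and its adaptors, which tune T and NK cell activation, had 9 tested genes of 12. Of these, 6 were called higher and 1 lower at 0 h, 7 higher and 1 lower at 3 h, and for the difference 6 more positive and 2 more negative. The pattern of Slamf7 was called in 1 of the 9, beside 3.8% of all tested genes, from which nothing is read. That gene was Slamf1, the founding member of the family. It stood at 28.6 and 28.2 against 13.3 and 13.8 CPM at 0 h and at 406 and 389 against 486 and 480 CPM at 3 h, with guide effects of -1.07 ± 0.051 (adjusted p = 2.96e-15) and 0.28 ± 0.037 (adjusted p = 5.13e-07). The 3 h call was lost on log2(TPM + 1), at 0.07. Cd48, a ligand of another SLAM receptor, was 0.11 ± 0.037 at 0 h and -0.74 ± 0.036 at 3 h (adjusted p = 7.65e-15). Its 0 h call was lost without control 0 h replicate 1 or any of the 4 Foxp3 guide libraries (0.08 to 0.11) with median-ratio size factors and with DESeq2, and its sign turned on log2(TPM + 1), at -0.17. Slamf6 (0.42 and 0.81) and Sh2d1a (0.32 and 1.85), the latter the adaptor SAP, were called higher at both times; the 0 h call of Sh2d1a was lost on log2(TPM + 1).

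The nectin-like and junctional adhesion families, which hold the ligands and relatives of CRTAM and JAML, had 14 tested genes of 19. Of these, 4 were called higher and 7 lower at 0 h, 5 higher and 6 lower at 3 h, and for the difference 2 were more positive and 1 more negative. Nectin3, an adhesion receptor, fell at both times (-0.78 and -0.58). Tigit, the inhibitory receptor for nectins, rose at both (0.66 and 0.66), from 21.8 to 34.4 CPM at 0 h and from 63.8 to 100.4 CPM at 3 h. Cd226, which competes with TIGIT for the same ligands, fell at 3 h (-0.83 ± 0.11, adjusted p = 8.64e-07) and did not pass at 0 h, at 7.55 and 7.88 CPM. Jam2, named after its values were seen, had the pattern of the 6 genes at -2.11 ± 0.61 and 0.64 ± 0.25, on 0.0431 to 1.31 CPM. Its calls were lost without control 0 h replicate 2 (-1.82, adjusted p = 0.055) and, at 3 h, without replicate 1 of either 3 h group (0.42 to 0.57) and with DESeq2; on log2(TPM + 1) the 0 h call was lost.

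The CCN family and Wnt pathway genes, the surroundings of Ccn4, had 14 tested of 18. At 0 h 7 were called higher and 7 lower, and at 3 h 3 higher and 6 lower, and for the difference 4 were more positive and 4 more negative. Ccn3, a relative of Ccn4, rose at 3 h from 2.71 to 7.40 CPM (1.44 ± 0.12, adjusted p = 9.57e-11), and was 0.35 ± 0.14 at 0 h, a call lost without control 0 h replicate 2 or either Foxp3 guide 0 h library (0.28 to 0.38), with median-ratio size factors, with DESeq2 and on both TPM scales. Tcf7 and Lef1, the factors at the end of Wnt signalling, had guide effects of 2.39 ± 0.039 and 0.86 ± 0.036 at 0 h. At 3 h they were 0.29, a call lost on log2(TPM + 1), and -0.38. Axin2, a feedback inhibitor that Wnt signalling induces, was higher with the Foxp3 guide at both times, at 0.61 ± 0.049 (a call lost on log2(TPM + 0.1)) and 1.80 ± 0.065. The 4 differences between the times were called, in the direction of Ccn4 for Ccn3 and Axin2 and against it for Tcf7 and Lef1.

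The mRNA repression and deadenylation list, the machinery with which Smaug acts, had all 23 genes tested. Of them, 7 were called higher and 6 lower at 0 h, 10 higher and 3 lower at 3 h, and 9 were more positive and 2 more negative at 3 h. Nanos1, another translational repressor, was higher with the Foxp3 guide at both times (1.06 ± 0.080 and 1.19 ± 0.12). So was Cnot9 (0.63 and 0.39), a subunit of the CCR4-NOT deadenylase. Cnot11 of the same complex rose at 3 h (0.58 ± 0.045, adjusted p = 5.12e-11); at 0 h its 0.15 turned to -0.10 on log2(TPM + 1), and the call was lost with median-ratio size factors, with DESeq2 and without control 0 h replicate 1 or Foxp3 guide 0 h replicate 2. The decapping enzyme Dcp2 was 0.38 and 0.30, and both calls were lost on log2(TPM + 1).

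Among PDZK1 and its cargo, 6 of 11 genes were tested. The calls were 3 higher and 3 lower at 0 h, and 1 higher and 3 lower at 3 h, and for the difference 1 was more positive and 2 more negative. Slc22a5, a carnitine transporter, fell from 64.4 to 19.1 CPM at 0 h (-1.75 ± 0.050, adjusted p = 1.26e-19) and from 28.8 to 17.4 CPM at 3 h (-0.73 ± 0.055). Slc9a3r1, a related PDZ scaffold, fell at 3 h (-0.70 ± 0.051) and was -0.16 at 0 h, a call lost without control 0 h replicate 2 or Foxp3 guide 0 h replicate 2. Scarb1, the HDL receptor that PDZK1 holds at the membrane, rose at both times (0.77 and 0.48).

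The list of cytotoxic CD4 T cell genes, the programme with which CRTAM is associated, had 15 of 16 tested. The calls were 9 higher and 5 lower at 0 h, and 9 higher and 6 lower at 3 h. For the difference 4 were more positive and 8 more negative, beside 17.8% and 27.0% of all tested genes, a split that depended on scaling, as given below. The median was -0.30, beside -0.09 over all genes. The 6 genes have a positive difference by choice, so the list is not compared with them. The granule protease Gzma (1.71 ± 0.13 and 2.10 ± 0.15) and Fasl, the death ligand (1.91 ± 0.079 and 1.45 ± 0.044), were higher with the Foxp3 guide at both times. So was the NK receptor gene Klrd1 (3.10 ± 0.23 and 2.68 ± 0.42), at 0.760 and 0.795 against 6.66 and 6.68 CPM at 0 h. At 3 h Klrd1 stood at 0.0222 and 0.330 against 1.22 and 1.03 CPM, with 15 counts in the control libraries. Prf1, which encodes perforin, fell at both (-2.43 ± 0.14 and -0.83 ± 0.086). Ccl5 and Serpinb9 had the pattern of the 6 genes: the chemokine gene Ccl5 was -0.47 ± 0.068 and 1.63 ± 0.055, and the granzyme B inhibitor gene Serpinb9 was -1.31 ± 0.059 and 0.47 ± 0.042. The factors Tbx21 (1.86 and -0.50), Eomes (0.32 and -1.21) and Runx3 (0.11 and -0.28), which drive cytotoxic genes, had the opposite one, with the signs of Eomes and Runx3 at 0 h turning on log2(TPM + 1), to -0.01 and -0.15. Their 0 h calls were also lost with median-ratio size factors and DESeq2, and without control 0 h replicate 2 or either Foxp3 guide 0 h library for Eomes (0.22 to 0.37) and without control 0 h replicate 1 or any of the 4 Foxp3 guide libraries for Runx3 (0.06 to 0.11). These 5 genes were named after their values were seen.

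**Figure D4:**
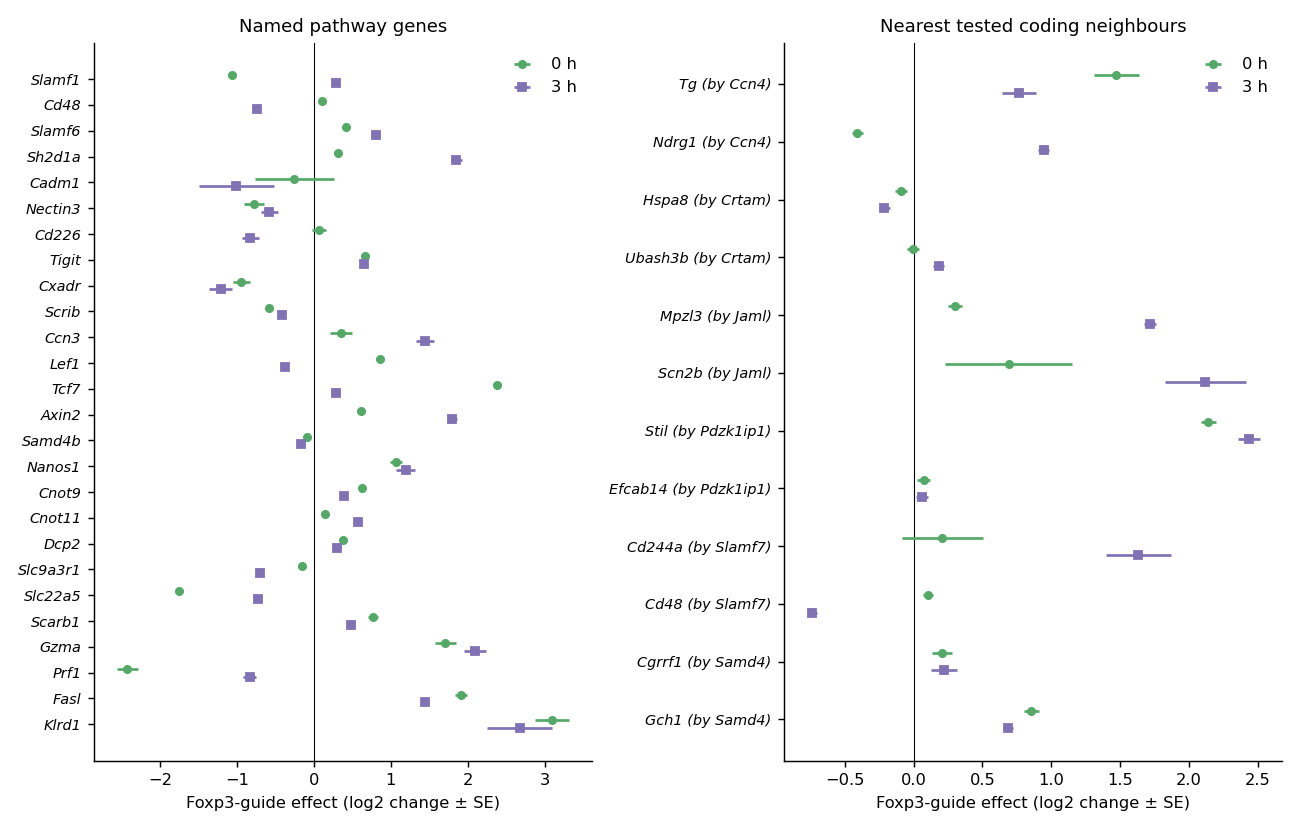
Guide effect (log2 change ± SE) at 0 h in green and at 3 h in violet, for the named pathway genes on the left and the nearest tested coding genes on the right. Slamf1 and Ndrg1 lie left of 0 at 0 h and right of it at 3 h, as the 6 genes do, while Cxadr and Scrib lie left of 0 at both times.

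The nearest tested coding gene on each side of each of the 6 was counted in the same way. Of the 12 neighbours 6 were called higher and 1 lower at 0 h, and 9 higher and 2 lower at 3 h, beside 34.2% higher and 29.1% lower, and 30.7% and 30.8%, of all tested genes. The pattern of the 6 was found in 1 of the 12, beside 3.8% of all tested genes, from which nothing is read. That was Ndrg1, a stress-induced gene 6117 bp from Ccn4, at -0.41 ± 0.040 (adjusted p = 2.997e-09) and 0.94 ± 0.037 (adjusted p = 1.02e-16). It stood at 92.8 and 92.6 against 68.5 and 71.2 CPM at 0 h and at 314 and 315 against 601 and 608 CPM at 3 h. Mpzl3 ends 1747 bp before Jaml on the same strand and stood at 18.2 and 17.8 against 21.9 and 22.3 CPM at 0 h. At 3 h it stood at 67.4 and 62.5 against 216 and 212 CPM, an excess of 1.72 ± 0.041 (adjusted p = 8.95e-21) beside that of Jaml. At 0 h it was higher with the Foxp3 guide (0.30 ± 0.052, a call lost on log2(TPM + 1)), where Jaml was lower.

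Other neighbours differed from the gene beside them. Stil, a centriole gene 45512 bp from Pdzk1ip1, was higher at both times, at 2.14 ± 0.053 and 2.44 ± 0.079, and with the control guide stood at 17.8 and 18.8 CPM at 0 h and at 3.35 and 3.73 CPM at 3 h. Beside Slamf7, Cd244a, another SLAM receptor, rose at 3 h (1.63 ± 0.24, adjusted p = 1.83e-06) at 0.466 and 0.543 against 1.67 and 1.48 CPM, and did not pass at 0 h. Cd48 on the other side fell at 3 h, as given above. Beside Samd4, Gch1, which starts tetrahydrobiopterin synthesis, was higher at both times (0.85 and 0.69). Tg, the neighbour of Ccn4 on the other side, was higher at both times too (1.47 and 0.77), on 0.856 to 4.73 CPM. Hspa8, beside Crtam, was lower at 3 h (-0.21), and Ubash3b on its other side was 0.18 at 3 h, a call lost on log2(TPM + 1). Scn2b, beyond Jaml, was higher at 3 h (2.12 ± 0.29), at 0.400 and 0.260 against 1.45 and 1.45 CPM. Efcab14 passed at neither time. Cgrrf1, before Samd4, was 0.20 and 0.22, and on log2(TPM + 1) the 3 h sign turned. Both calls were lost with DESeq2. Its 0 h call was lost without either control library at 0 h or Foxp3 guide 0 h replicate 1, and its 3 h call without either control library at 3 h, either Foxp3 guide library at 0 h or Foxp3 guide 3 h replicate 2.

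For each of the 6, the 2 genes whose log2 CPM followed it most closely over the 8 libraries were drawn from 6755 genes. For Jaml these were Utp14b (r = 0.998) and Mmd (r = 0.996), and for Crtam Errfi1 and Tsc22d2 (both r = 0.999). For Slamf7 they were Syde2 (r = 0.9998) and Rnf24 (r = 0.999), for Samd4 Nfkbie and Zfp36l1 (both r = 0.9998), for Ccn4 Wdr59 and Usp42 (both r = 0.998), and for Pdzk1ip1 the pseudogene Amd-ps3 and Rnf24 (both r = 0.998). All 11 of these genes had a negative guide effect at 0 h and a positive one at 3 h, which the choice by likeness favours, each smaller in size than that of the gene it followed. Zfp36l1, which encodes an RNA-binding protein of mRNA decay, stood at 288.7 and 289.7 CPM against 154 and 155 at 0 h, and at 1369 and 1368 against 1474 and 1453 CPM at 3 h. Nfkbie, an inhibitor of NF-kappaB, stood at 33.4 and 33.7 against 19.5 and 20.2 CPM, and at 146 and 149 against 161 and 163 CPM at 3 h. These coefficients are over 8 libraries in 4 groups of 2, so a gene that repeats 4 group levels reaches a high value.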

How the data were processed

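RNA was sequenced from cultured natural Treg cells in 8 libraries, grouped by guide and time from the labels. The submitters' processing notes name Trim Galore 0.6.3 for trimming, STAR 2.7.9a for alignment to mm10 (GRCm38) and RSEM 1.3.1 for quantification; the annotation release is not given in the sources used here. The authors deposited expected counts for each gene, and these were rounded before fitting. The deposited TPM values were used to compare genes and as an alternative scale.

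Counts were kept by filterByExpr (16642 genes), scaled by TMM and fitted with edgeR 4.0.16 (quasi-likelihood, robust, 1 mean per group, R 4.3.3), leaving 4 residual degrees of freedom; the common biological coefficient of variation was 3.41%. Genes were called at a Benjamini-Hochberg adjusted p below 0.05. CPM use the TMM-scaled library size. Replicates were not duplicates (chi-square per gene 4.54 to 7.47). Alternatives were median-ratio size factors, DESeq2 1.42.0, no filter, limma 3.58.1 on log2(TPM + 1) and log2(TPM + 0.1), a replicate block, and each library left out.

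The 6 genes and the lists were chosen with earlier results of these data known. Named besides them were Foxp3, the direct partners with the paralogue Samd4b, and at most 4 genes a list. The list genes had the largest called changes at a mean log2 CPM of at least 1. The nearest tested coding neighbours and the 2 most alike genes of each of the 6 were named as well. Identifiers were looked up in GENCODE M21, where 55180 of 55665 matched with version. Promoter sequences are from RefSeq (GRCm38.p6).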

Additional observations from a re-analysis of the deposited data

Results flagged for a closer look

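The guide effect differed between 0 h and 3 h by edgeR's quasi-likelihood test (adjusted p below 0.05) for 30 of 43 tested pathway genes and neighbours that are named here. Over all tested genes 44.8% did so, but many of the 43 were named for the size of their called changes or after their values were seen, so the shares are not to be compared. The differences are given as the log2 guide effect at 3 h minus that at 0 h. The 6 genes themselves were chosen on this difference and are not among the 30.

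More positive at 3 h, as in the 6 genes, were Jam2 (2.75), Ccl5 (2.10), Serpinb9 (1.78), Prf1 (1.59), Sh2d1a (1.53), Cd244a (1.42), Mpzl3 (1.42), Ndrg1 (1.35), Slamf1 (1.35), Axin2 (1.19), Ccn3 (1.09), Slc22a5 (1.03), Cnot11 (0.43) and Slamf6 (0.39). Stil (0.30), Ubash3b (0.18) and Scrib (0.18) were as well, and these 3 calls were lost without control 0 h replicate 2 or without Foxp3 guide 0 h replicate 2, and those of Stil and Scrib also without control 3 h replicate 1 (adjusted p from 0.050 to 0.17).

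More negative at 3 h were Tbx21 (-2.36), Tcf7 (-2.10), Eomes (-1.53), Lef1 (-1.23), Cd226 (-0.89), Cd48 (-0.84), Slc9a3r1 (-0.55), Fasl (-0.46) and Runx3 (-0.39). Tg (-0.71) and Cnot9 (-0.23) lost the call without Foxp3 guide 3 h replicate 2. Scarb1 (-0.29) lost it without either Foxp3 guide library at 3 h or Foxp3 guide 0 h replicate 1. The call of Fasl was lost on log2(TPM + 1), that of Cd244a on log2(TPM + 0.1), that of Ubash3b with no filter, and those of Scrib and Stil on both TPM scales. The calls of Tg, Cnot9 and Scarb1 were also lost with DESeq2 and on log2(TPM + 1). Gch1 (-0.17) lost it with median-ratio size factors, with DESeq2, on both TPM scales, with the replicate block, and without any of 7 libraries in turn, all but control 3 h replicate 1, with values from -0.19 to -0.05.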

How the results depend on the processing

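The signs of the guide effects, TCR effects and differences of the 6 genes were the same under the 6 processing alternatives and with each of the 8 libraries left out. The genes were chosen on the signs of the guide effects in these same libraries, so this lends those signs no support. In size, 63 processing values moved beyond the spread between replicates and 117 did not. With a library left out, 12 moved and 228 did not. Of 106 calls of other named genes, 78 were kept under all of these, 26 were lost under at least 1 processing alternative and 18 without at least 1 library. The count of genes called lower at 0 h and higher at 3 h fell from 632 to 321 on log2(TPM + 1) and to 319 on log2(TPM + 0.1); the cause was not tested. On these same scales (TPM + 1, then TPM + 0.1) the sign turned at 0 h for Cd48 (-0.17 and -0.17), Cnot11 (-0.10 and -0.11), Eomes (-0.0111 and -0.0167) and Runx3 (-0.15 and -0.15), at 3 h for Cgrrf1 (-0.0086 and -0.0105), and for the difference of Stil (-0.23 on TPM + 1); the cause was not tested. The share of differences called more positive was 39.7%, 48.7% with median-ratio size factors, 50.2% with DESeq2 and 51.5% on log2(TPM + 1). On log2(TPM + 1) the 0 h effects of the sparse genes shrank, to -0.20 for Crtam and -0.32 for Samd4, since 1 TPM is above their level. Depth limits the 0 h values of all but Jaml: they rest on 7 to 112 counts a group.

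Same-numbered libraries deviated from their group means with correlations of -0.148 to 0.197 over 9622 genes, the highest between the 2 groups at 3 h. Since each group has 2 libraries, these values cannot exclude that the replicate numbers pair the libraries. The main fit used no block. With the replicate block, 66, 60 and 45 list genes were called in the 3 comparisons, and 594 genes had the pattern.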
